A study of Mus musculus with 8 samples.

Results

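Plasma cells are the antibody-secreting end stage of the B cell, and 8 genes that mark them and their product were followed in inflamed mouse hearts. The genes were Jchain, Mzb1, Sdc1, Igkc, Ighg1, Ighg2b, Ighg3 and Igha. They were taken by symbol, and all 8 have values among the 18835 genes with values in a table that lists 56941. The hearts came from male BALB/cAJcl mice, 10 weeks old, immunized with cardiac myosin to set off autoimmune myocarditis. In the VEGF-C group (4 hearts) the mice were injected with 1 µg per day of VEGF-C C156S, a mutant lymphatic growth factor selective for the receptor VEGFR-3, into the peritoneum from day 7 to day 10. In the PBS group (4 hearts) they were injected with PBS on the same days. Both groups were immunized, and hearts of mice without immunization were not analysed here. Heart tissue was taken in week 3 and its messenger RNA sequenced from stranded libraries. The series title names lymphatic endothelial cells, but each sample is labelled heart, and 10 cardiomyocyte markers summed to between 3.96 and 4.41 M normalized counts (reads divided by a size factor for each library) in VEGF-C hearts and between 2.96 and 3.95 M in PBS hearts. Libraries held 53.7 to 65.2 M reads in VEGF-C hearts and 61.7 to 76.8 M reads in PBS hearts. The library names carry a different number for each sample, and each was read as 1 animal. The replicate numbers below are those of the table's columns and tie to no animal number.

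An activated B cell can exchange the constant region of its heavy chain, passing from IgM and IgD to IgG or IgA while keeping the same antigen-binding part. Its plasma cell progeny then fill with endoplasmic reticulum and devote much of their RNA to heavy and light chains. Igkc encodes the constant part of the kappa light chain, the main light chain of mice. Ighg1, Ighg2b and Ighg3 encode constant regions of IgG subclasses, and Igha that of IgA. Jchain encodes the joining chain that links IgM and IgA into polymers, and Mzb1 an endoplasmic reticulum protein that helps assemble and secrete IgM and IgA. Sdc1 encodes syndecan-1, known as CD138, a heparan sulphate proteoglycan that labels plasma cells in flow cytometry and is also made by epithelial and other cells.

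The IgG constant genes are paralogs, so the hinge, a stretch in which they differ in length and sequence, is shown first. Each line gives the end of the first constant domain, the hinge in capitals and the start of the next domain, from transcripts of GENCODE M21 on GRCm38.
Ighg1: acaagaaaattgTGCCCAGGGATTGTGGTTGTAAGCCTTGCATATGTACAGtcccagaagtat
Ighg2b: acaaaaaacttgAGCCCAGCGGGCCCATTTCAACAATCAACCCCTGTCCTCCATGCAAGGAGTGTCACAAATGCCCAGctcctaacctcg
Ighg2c: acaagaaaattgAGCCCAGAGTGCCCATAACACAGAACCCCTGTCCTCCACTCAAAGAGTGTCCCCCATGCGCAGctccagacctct
Ighg3: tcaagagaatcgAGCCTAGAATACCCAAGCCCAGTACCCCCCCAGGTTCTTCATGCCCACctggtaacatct
The hinge exons lie on the minus strand at chr12:113329844-113329882 (Ighg1), chr12:113307261-113307326 (Ighg2b), chr12:113288263-113288325 (Ighg2c) and chr12:113360529-113360576 (Ighg3). They are 39, 66, 63 and 48 bases long in that order. Aligned over whole transcripts of similar length, Ighg1 shared 69.7% of aligned bases with Ighg2b and 69.8% with Ighg3, and Ighg2b 70.6% with Ighg3. The Ighg2c transcript is shorter (1214 bases), and over it Ighg2c shared 87.8% with Ighg2b, 79.1% with Ighg1 and 78.7% with Ighg3. Of all 50-base windows, 0.411% in Ighg1, 4.33% in Ighg2b and 1.65% in Ighg3 also occur exactly in another of these 4 genes. The values of the subclasses are uncertain to the extent that the authors' counting split or dropped such reads. The reference genome comes from C57BL/6 mice, which carry Ighg2c, whereas BALB/c mice carry Ighg2a in its place. How reads of Ighg2a fell on the other subclasses was not tested, and Ighg2a itself was not analysed here.

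Jchain and Sdc1 are the 2 members with a RefSeq promoter in the table used (build GRCm38.p6), shown as the start regions of the steadiest member, Sdc1, and of one that varied widely, Jchain. The windows run from 250 bases before to 50 after the start, and capitals mark matches on either strand to CANNTG, the E-box letters, or ACGTG, a core shared by XBP1 sites; no match overlaps another.
Jchain, chr5:88527848-88528147, minus strand: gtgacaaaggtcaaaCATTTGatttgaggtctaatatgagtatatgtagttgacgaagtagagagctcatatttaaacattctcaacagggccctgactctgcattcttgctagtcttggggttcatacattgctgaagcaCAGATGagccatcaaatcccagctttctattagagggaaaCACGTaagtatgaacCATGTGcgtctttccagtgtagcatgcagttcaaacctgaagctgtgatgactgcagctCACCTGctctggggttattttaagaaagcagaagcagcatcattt
Sdc1, chr12:8771146-8771445, plus strand: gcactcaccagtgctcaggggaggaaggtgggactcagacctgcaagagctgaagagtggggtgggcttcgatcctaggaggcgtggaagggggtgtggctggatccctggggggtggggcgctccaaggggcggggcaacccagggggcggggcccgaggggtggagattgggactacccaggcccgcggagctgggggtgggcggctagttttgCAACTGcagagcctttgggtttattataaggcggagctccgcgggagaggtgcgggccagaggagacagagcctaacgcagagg
The Jchain window is 42.3% G and C and holds CANNTG 4 times and ACGTG once. That of Sdc1 is 66.3% G and C and holds CANNTG 1 time and ACGTG 0 times. Among all 32851 promoter windows in that RefSeq table, 72.3% hold CANNTG and 19.6% hold ACGTG. The octamer ATGCAAAT, searched on both strands, is in neither window and in 1.74% of all.

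No member passed the test between VEGF-C and PBS hearts, and the PBS hearts were spread widely. In limma, a linear model with moderated variances fitted to all 18835 genes, 0 of 8 members were called lower at a Benjamini-Hochberg adjusted p under 0.05, against 8.61% of all genes, and 0 were called higher, against 7.05% of all genes (15.7% in either direction). At an unadjusted p under 0.05, 1 member passed (32.3% of all genes), Ighg1, and with limma-voom on the recovered reads or a robust variance fit 0 passed after adjustment. Log2 fold changes were negative for 7 of 8 members, with a median of -0.78 beside 0.0013 over all genes. For 6 of 8 the difference of the group means was smaller than the SD of the PBS group on the log2 scale. The share over all genes was not counted for that measure. The SD of the log2 values was larger in PBS than in VEGF-C hearts for 7 of 8 members, against 54.3% of all genes.

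**Figure D1:**
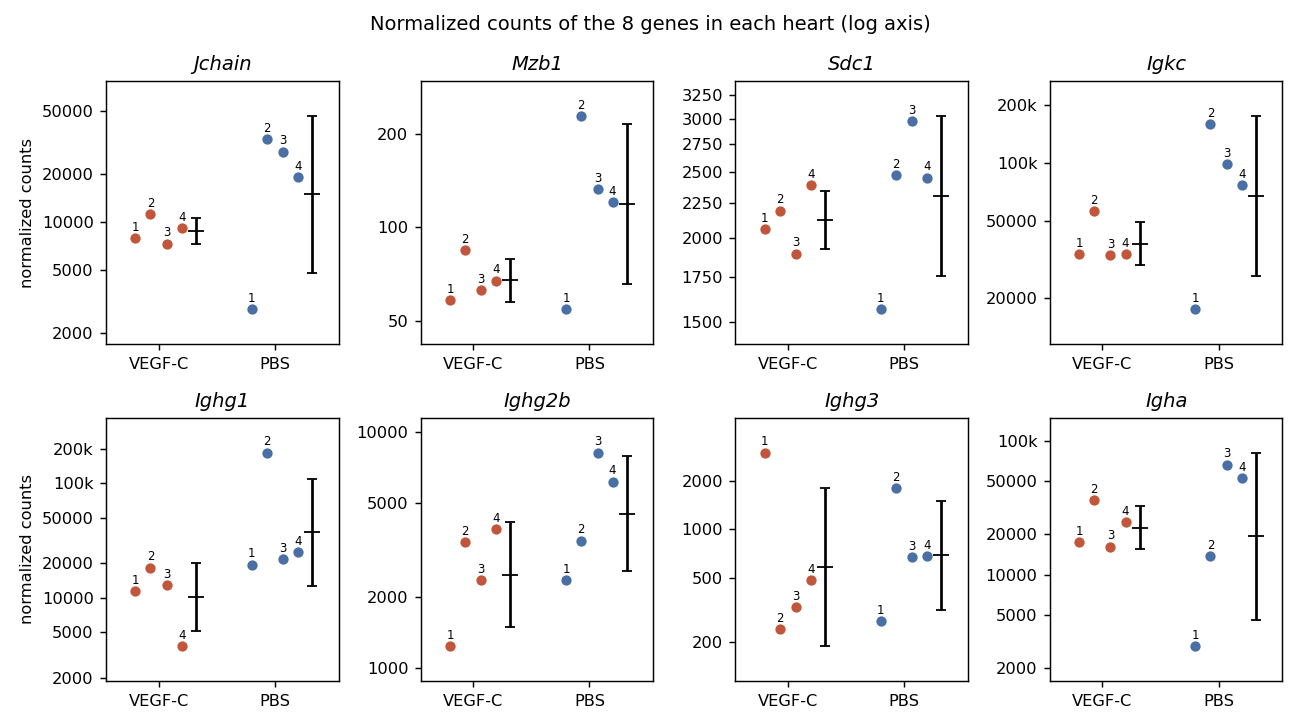
Normalized counts (log axis) of the 8 genes in each heart, with VEGF-C hearts on the left and PBS hearts on the right of each panel; small digits are replicate numbers, and the bar is the mean ± SD of log2 counts, n = 4. PBS replicate 1 is the lowest PBS heart in all 8 panels, and PBS replicate 2 stands far above the rest for Ighg1.

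PBS replicate 1 was at the low end of the PBS hearts in these genes. It was the lowest PBS heart for all 8 members and the lowest of all 8 hearts for Jchain, Mzb1, Sdc1, Igkc and Igha. For none of the 8 members did its gap from the next heart, over the range of the log2 values, pass Dixon's 95% critical value. For Ighg1 it lay close to PBS replicates 3 and 4 (19531, against 21764 and 24981 normalized counts). The share of all genes in which PBS replicate 1 was the lowest PBS heart was not counted. Other leukocyte markers were uneven in the same heart. The leukocyte list (Ptprc and 7 others) averaged 12.23 on the log2 scale there, the highest PBS value, against a range from 11.37 to 11.67 in VEGF-C hearts. The macrophage list (10 genes) averaged 12.27 on the log2 scale there, within the PBS range of 12.23 to 12.49, against 12.06 to 12.30 in VEGF-C hearts. Its sum there, 77792 normalized counts, was the lowest of the PBS hearts (up to 92262), against 73666 to 89764 in VEGF-C hearts. The B cell identity list summed to 9327 normalized counts there, against 4757 to 5946 in VEGF-C hearts and 7755 to 10010 over all PBS hearts. The fibroblast list (8 genes) summed lowest there, at 603860 normalized counts, against 854487 to 1081010 in VEGF-C hearts. Markers of blood (7 genes), which summed to between 148079 and 595825 normalized counts in VEGF-C hearts and between 76445 and 224658 in PBS hearts, were all below their mean over the 8 hearts in PBS replicate 1. The part of these differences in its plasma cell values was not tested. Without PBS replicate 1, 3 of 8 members were called lower in VEGF-C (8.70% of all genes). They were Jchain (log2 fold change -1.57 ± 0.19, SE; limma adjusted p = 0.00115), Igkc (-1.48 ± 0.25; 0.00600) and Mzb1 (-1.14 ± 0.25; 0.0170). Leaving out the lowest PBS heart of all 8 members lowers their fold changes by construction, which does not hold for the genes in general, so the share over all genes is no like-for-like background there. In bulk tissue, fewer plasma cells and less RNA per plasma cell cannot be told apart.

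**Figure D2:**
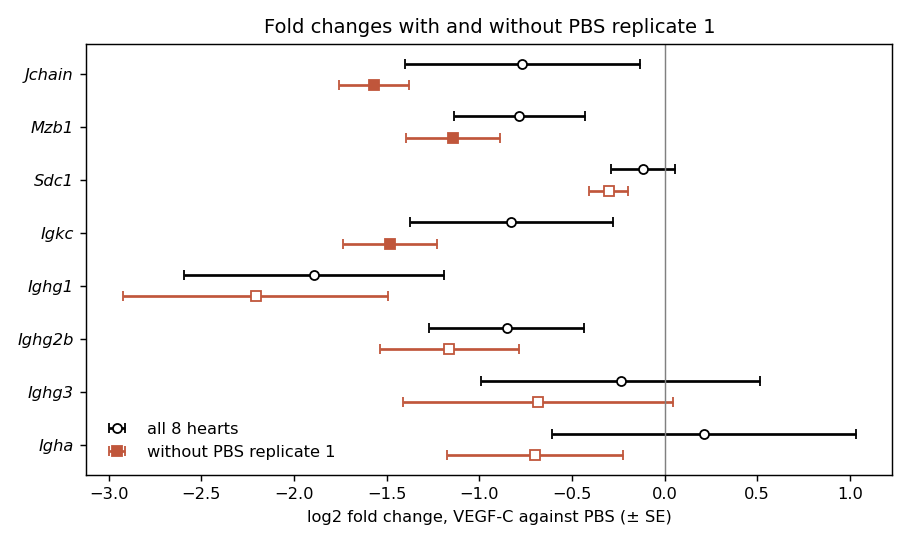
Log2 fold changes of VEGF-C against PBS (x axis, ± SE) for the 8 genes with all 8 hearts (circles) and without PBS replicate 1 (squares); filled symbols have a limma adjusted p under 0.05. No circle is filled, while the squares of Jchain, Mzb1 and Igkc are.

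Jchain, which joins antibody monomers into polymers, had 7910, 11200, 7341 and 9134 normalized counts in VEGF-C replicates 1 to 4, against 2833, 33302, 27740 and 19113 in PBS replicates 1 to 4. The VEGF-C hearts lay within 1.53-fold of each other, and the PBS hearts spanned 11.8-fold and enclosed them. On the log2 scale the difference was -0.77 ± 0.63 (SE; 95% interval -2.18 to 0.64; limma adjusted p = 0.433). Mzb1, the chaperone-like protein of antibody assembly, had 58.3, 84.4, 62.7 and 67.4 normalized counts in VEGF-C hearts, against 54.5, 228, 132 and 121 in PBS hearts. Again 3 PBS hearts were above every VEGF-C heart and replicate 1 was below. Its log2 fold change was -0.78 ± 0.36 (95% interval -1.57 to 0.0066; limma adjusted p = 0.158). In the authors' deposited table Mzb1 has a log2 fold change of -0.97 and an adjusted p of 0.0419, which makes it the only member under 0.05 there (21.7% of the genes with an adjusted p).

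Sdc1, the surface proteoglycan, was the steadiest member. It had 2057, 2193, 1893 and 2394 normalized counts in VEGF-C hearts, against 1566, 2473, 2975 and 2455 in PBS hearts. The PBS hearts spanned 1.90-fold, and the order of the PBS hearts differed from that of Jchain, with replicate 3 and not replicate 2 the highest. Its log2 fold change was -0.12 ± 0.17 (95% interval -0.49 to 0.26; limma adjusted p = 0.675). Markers of epithelium and mesothelium, which also make Sdc1, were read in every heart, with the 10 genes summing to between 3906 and 15340 normalized counts in VEGF-C hearts and between 7232 and 19584 in PBS hearts, 0 of 10 passing. Their lowest PBS sum was in PBS replicate 1, where Sdc1 was lowest too and 8 of the 10 were below their mean over the 8 hearts; their part in the Sdc1 values was not tested. The other syndecans did not pass either, with log2 fold changes of 0.28 ± 0.10 for Sdc2, -0.10 ± 0.14 for Sdc4 and 0.02 ± 0.09 for Sdc3 (limma adjusted p = 0.0714, 0.676 and 0.898).

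Igkc, the kappa constant region, was the most abundant member per length. It had 33662, 56409, 33101 and 33551 normalized counts in VEGF-C hearts, against 17354, 158976, 98504 and 76771 in PBS hearts. VEGF-C replicates 1, 3 and 4 were nearly equal, and replicate 2 stood above them. The groups overlapped, and the log2 fold change was -0.83 ± 0.55 (95% interval -2.05 to 0.39; limma adjusted p = 0.329). Jchain kept in step with it: Jchain reads came to 23.5, 19.9, 22.2 and 27.2% of Igkc reads in VEGF-C hearts, against 16.3, 20.9, 28.2 and 24.9% in PBS hearts. The groups overlapped in that ratio, which varied far less than either gene.

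Ighg1, the constant region of IgG1, had the most negative log2 fold change of the members. It had 11465, 18398, 12986 and 3790 normalized counts in VEGF-C hearts, against 19531, 186355, 21764 and 24981 in PBS hearts. It was the only member in which all VEGF-C hearts were below all PBS hearts, which was the case in 11.6% of all genes, and PBS replicate 2 was far above the other 7. The log2 fold change was -1.89 ± 0.70 (95% interval -3.45 to -0.33; limma adjusted p = 0.0926). It was -1.12 without PBS replicate 2 (limma adjusted p = 0.125), and with each heart left out in turn the adjusted p ran from 0.0630 to 0.212. The authors' deposited table gives -2.44 and no adjusted p for this gene.

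Ighg2b had 1243, 3407, 2353 and 3876 normalized counts in VEGF-C hearts, against 2368, 3467, 8165 and 6159 in PBS hearts. The groups overlapped, and PBS replicate 2, the highest heart for Ighg1, was not high for this subclass. The difference on the log2 scale was -0.85 ± 0.42 (95% interval -1.78 to 0.08; limma adjusted p = 0.189). Ighg3 had 2992, 242, 330.5 and 486 normalized counts in VEGF-C hearts, against 272, 1804, 677 and 684 in PBS hearts. A single heart in each group held most of the Ighg3 RNA, VEGF-C replicate 1 and PBS replicate 2, and the log2 fold change was -0.24 ± 0.75 (95% interval -1.91 to 1.43; limma adjusted p = 0.858). Its mean count was higher in VEGF-C hearts (1013 ± 1324, SD, n = 4) than in PBS hearts (859 ± 659), the opposite sign to the difference of its log2 means, and the authors' deposited table gives 0.24.

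Igha, the constant region of IgA, had the widest spread in PBS hearts. It had 17587, 36108, 16255 and 24854 normalized counts in VEGF-C hearts, against 2922, 13837, 66765 and 52850 in PBS hearts. The VEGF-C hearts lay between 2 low and 2 high PBS hearts. The log2 fold change was 0.21 ± 0.82 (95% interval -1.61 to 2.03; limma adjusted p = 0.885), while mean counts were 23701 ± 9093 in VEGF-C hearts and 34094 ± 30557 in PBS hearts (SD, n = 4), again of the opposite sign, and the authors' deposited table gives -0.52. The log2 fold change was -0.70 without PBS replicate 1 and -1.40 ± 0.29 without PBS replicates 1 and 2 (limma adjusted p = 0.0250). Without those 2 hearts 4 of 8 members were called lower (4.30% of all genes), namely Jchain, Igkc, Ighg2b and Igha. That pair was chosen after the values were seen. Those 2 hearts are the lowest PBS hearts for Igha and Ighg2b, so leaving them out lowers both fold changes by construction. The share over all genes is thus no like-for-like background here.

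Set in order by mean normalized counts per kilobase of exon (lengths from GENCODE M21), Igkc came first in both groups, at 73649 ± 21594 in VEGF-C hearts and 165227 ± 109951 in PBS hearts (SD, n = 4). Igha (8883 ± 3408), Ighg1 (4498 ± 2327) and Jchain (3534 ± 679) followed in VEGF-C hearts, each overlapping its neighbour among these 3. In PBS hearts Ighg1 (24367 ± 31698) was ahead of Igha (12779 ± 11453) and Jchain (8243 ± 5281), and these 3 overlapped one another. Ighg2b (1016 in VEGF-C and 1882 in PBS hearts), Sdc1 (560 and 621), Ighg3 (403 and 342) and Mzb1 (56.2 and 110.2) were the lower ones in both groups. In VEGF-C hearts all neighbours of these 4 overlapped except Ighg3 and Mzb1, and in PBS hearts all did except Ighg2b and Sdc1.

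The mix of isotypes varied from heart to heart in both groups. Of the reads on 7 heavy-chain constant genes, Igha took 36.0, 51.1, 32.7 and 61.6% in VEGF-C hearts, against 8.05, 3.65, 47.0 and 40.3% in PBS hearts. PBS replicates 1 and 2 were thus low in IgA reads, and the other 6 hearts lay between 32.7 and 61.6%. Ighg1 took 23.4, 26.0, 26.1 and 9.39% in VEGF-C hearts, against 53.8, 49.1, 15.3 and 19.0% in PBS hearts, so that the same PBS pair was the highest. Ighm, the constant region of IgM, took 30.0, 16.0, 34.2 and 14.0% in VEGF-C hearts and 26.1, 45.3, 28.2 and 31.5% in PBS hearts. Ighg2b took between 2.54 and 9.60% in VEGF-C hearts and between 0.914 and 6.52% in PBS hearts, and Ighg3 between 0.342 and 6.12% and between 0.476 and 0.748% in the same groups. Totals were 36516 to 387791 reads per heart, and the 95% Wilson intervals of these shares reached at most 0.499 percentage points to either side, which covers counting error only. The 7 genes include Ighg2c and leave out Ighg2a, which BALB/c mice carry in its place. How reads of Ighg2a fell on the 7 was not tested. Shares of reads are not corrected for length and were compared only within a gene, and no test was made of them.

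**Figure D3:**
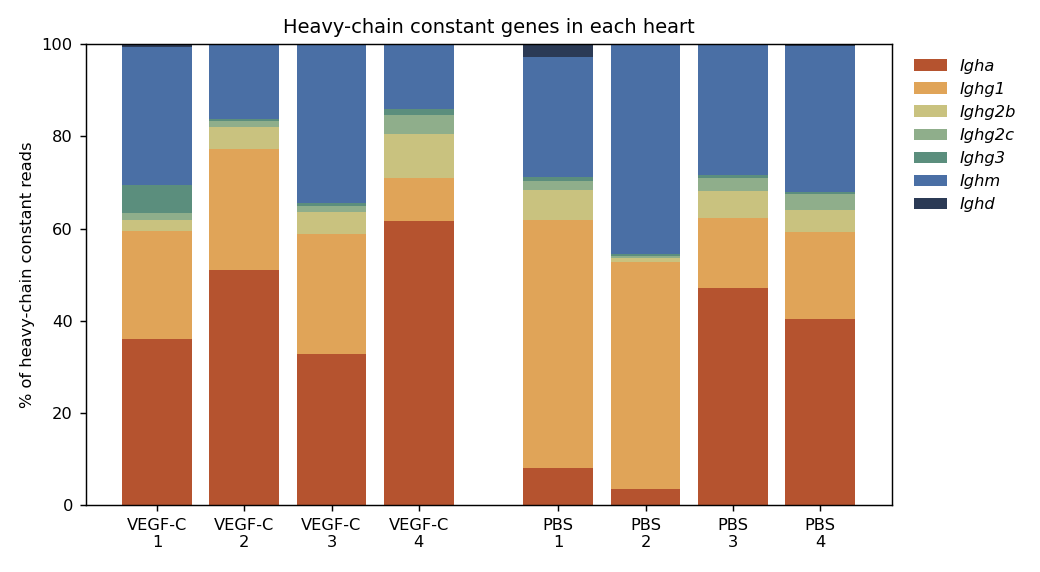
Share of heavy-chain constant reads (y axis, percent) taken by each of 7 constant genes in every heart, VEGF-C hearts on the left and PBS hearts on the right. Igha fills 32.7 to 61.6% of the VEGF-C bars, and in PBS replicates 1 and 2 it fills 8.05 and 3.65%, where Ighg1 fills 53.8 and 49.1%.

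PBS replicate 2 also stood apart in its light chains. Lambda constant reads (Iglc1, Iglc2 and Iglc3) made up 3.64, 2.58, 3.13 and 1.71% of light-chain constant reads in VEGF-C hearts, against 3.30, 12.7, 3.33 and 3.15% in PBS hearts. Iglc1 had 848, 1154, 542 and 411 normalized counts in VEGF-C hearts and 262, 18978, 1235 and 1152 in PBS hearts. All immunoglobulin genes together, variable segments included, took 0.162, 0.232, 0.157 and 0.147% of reads in VEGF-C hearts, against 0.109, 1.22, 0.565 and 0.459% in PBS hearts. PBS replicates 2 to 4 thus held more antibody RNA than any VEGF-C heart, and PBS replicate 1 held the least.

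Among the other constant genes and surrogate chains, 2 of 8 with values were lower and 0 higher in VEGF-C, against 8.61% and 7.05% of all genes. Ighd, the constant region of IgD on B cells that have not switched, fell to 177 ± 86.6 normalized counts in VEGF-C hearts, against 649.7 ± 279 in PBS hearts (SD, n = 4; log2 fold change -1.91 ± 0.43, SE; limma adjusted p = 0.0164), and PBS replicate 1 had the most of it, 996 normalized counts. Iglc3 was lower by -1.80 ± 0.51 (limma adjusted p = 0.0402), a call lost on leaving out any 1 heart except PBS replicate 1 (up to 0.104) and also lost with voom (0.116) and a robust variance fit (0.0781). Ighm (-1.85 ± 0.71), Iglc2 (-2.14 ± 0.71) and Ighg2c (-1.21 ± 0.53) did not pass (limma adjusted p = 0.100, 0.0664 and 0.148). BALB/c mice carry Ighg2a in place of Ighg2c, and how its reads fell on Ighg2c was not tested. In the authors' deposited table Ighm has a log2 fold change of -2.44 and an adjusted p of 0.0240. Without PBS replicate 1, 5 of these 8 were called lower (8.70% of all genes), and 4 without PBS replicates 1 and 2 (4.30% of all genes). Without any other 1 heart the count was 1, Ighd. PBS replicate 1 was the lowest PBS heart for Ighm, Ighg2c, Iglc2 and Iglc3, so leaving it out lowers their fold changes by construction. The shares over all genes are thus no like-for-like background. Ighm passed without PBS replicate 1 (-2.55; limma adjusted p = 0.0104). The list median was -1.52.

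Of the regulators and receptors of plasma cells, 3 of 14 with values were lower and 0 higher, against 8.61% and 7.05% of all genes. The list median was -0.57. Irf4, a transcription factor of activated B cells and plasma cells that other leukocytes share, fell to 287 ± 28.2 normalized counts in VEGF-C hearts, against 561 ± 127 in PBS hearts (log2 fold change -0.94 ± 0.16; limma adjusted p = 0.00461). Tnfrsf13b, the receptor TACI for the survival factors BAFF and APRIL, fell by 0.67 on the log2 scale (limma adjusted p = 0.0129). Pou2af1, a B cell coactivator of immunoglobulin transcription, was lower by -1.31 ± 0.33 (limma adjusted p = 0.0248), and its call was lost without any 1 heart except PBS replicate 1 and VEGF-C replicate 2 (up to 0.0579). The plasma cell regulators Prdm1 (-0.25 ± 0.18) and Xbp1 (0.05 ± 0.08) did not pass (limma adjusted p = 0.363 and 0.712), nor did Tnfrsf17, the plasma cell receptor BCMA. Tnfrsf17 was lowest in PBS replicate 1 and highest in PBS replicate 2, as were Jchain, Mzb1 and Igkc, with 33.9, 28.6, 20.2 and 22.1 normalized counts in VEGF-C hearts, against 17.9, 97.8, 56.0 and 38.9 in PBS hearts (log2 fold change -0.72 ± 0.42; limma adjusted p = 0.269). Eaf2, which encodes a partner of the elongation factor ELL, did not pass (-0.68 ± 0.31, limma adjusted p = 0.156). It was called lower without PBS replicate 1 (-0.98, limma adjusted p = 0.0215). PBS replicate 1 was the lowest heart for Eaf2, so leaving it out lowers that fold change by construction.

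B cell identity genes were mostly above their mean over the 8 hearts in PBS replicate 1 (15 of 18), where 7 of 8 members were below. That mean includes the VEGF-C hearts, and 17 of the 18 had negative log2 fold changes, so a PBS heart tends to lie above it. The B cell list averaged 8.66 on the log2 scale in PBS replicate 1, within the PBS range of 8.32 to 8.74. VEGF-C hearts ranged from 6.84 to 7.87. Of these 18 genes, 11 were lower and 0 higher in VEGF-C, with a list median of -1.16. Blk, which encodes a kinase of B cell receptor signalling, fell to 487 ± 95.7 normalized counts in VEGF-C hearts, against 1018 ± 184 in PBS hearts (SD, n = 4; log2 fold change -1.06 ± 0.16, SE; limma adjusted p = 0.00309). The kinase gene Btk fell by 0.60 and the inhibitory receptor gene Cd22 by 1.04 on the log2 scale (limma adjusted p = 0.00500 and 0.00667). Cd79a, the signalling chain of the receptor, was lower by -1.56 ± 0.36 (limma adjusted p = 0.0186; 0.0526 without VEGF-C replicate 3). The count was 6 of 18 without VEGF-C replicate 3 and 3 of 18 without PBS replicates 1 and 2, and between 8 and 12 without any other 1 heart. The pan-leukocyte gene Ptprc was lower too (-0.66 ± 0.16; limma adjusted p = 0.0229), a call that leaving out VEGF-C replicate 2, VEGF-C replicate 3 or PBS replicate 3 ended (up to 0.0575). In the leukocyte list 4 of 8 were lower, with 0 of 8 without VEGF-C replicate 3, 1 without PBS replicate 3 and 2 when VEGF-C replicate 2 or 4 was left out. T cell genes did not pass (0 of 10, list median -0.09), and 2 were called lower without VEGF-C replicate 1. Of 10 macrophage genes 1 was lower, with 0 to 2 when each heart was left out in turn. With scaling by library totals, 2 of the T cell, 4 of the macrophage and 14 of the 18 B cell genes were lower. That scaling shifted the median log2 fold change over all genes by -0.19. No test compared the B cell list with the members. The counts of the lists stand beside 8.61% of all genes called lower.

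**Figure D4:**
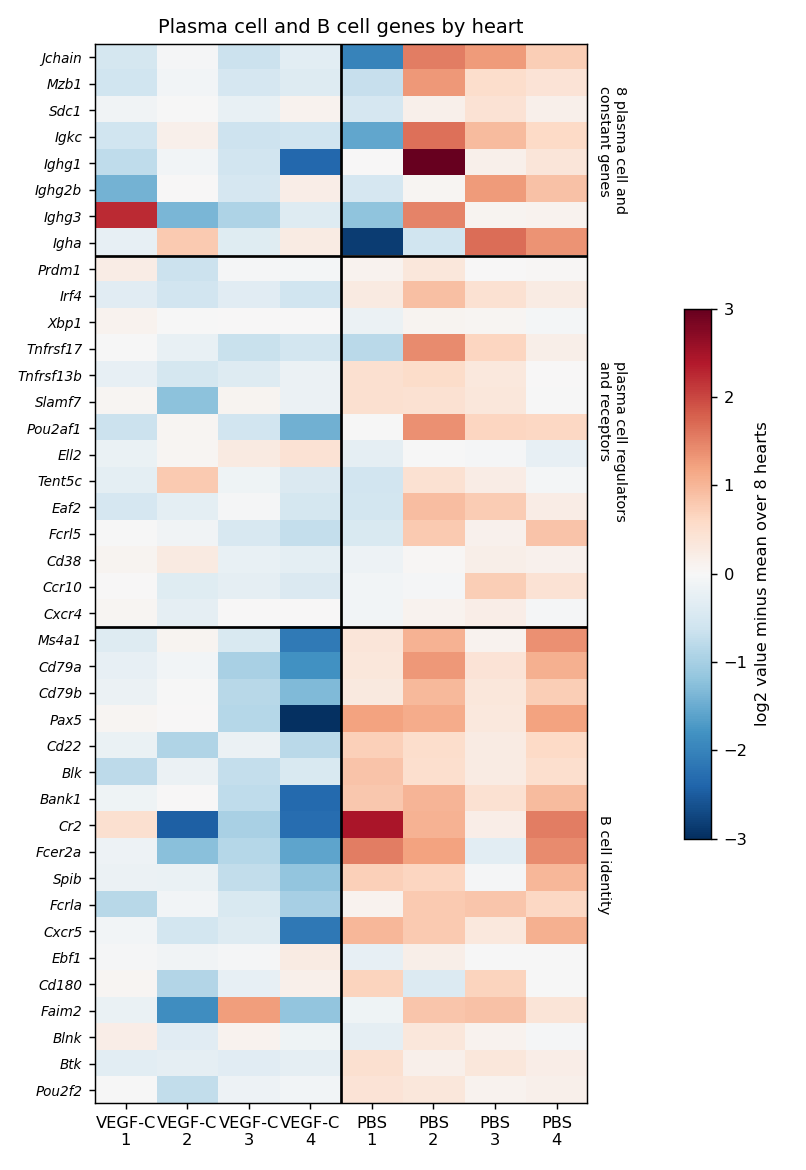
Log2 values minus their mean over the 8 hearts (colour, from -3 to 3; values beyond are drawn at the end colour) for the 8 genes, 14 plasma cell regulators and receptors and 18 B cell genes, VEGF-C hearts on the left. PBS replicate 1 is below the mean in 7 of the 8 genes of the top block and above it in 15 of the 18 B cell genes. The mean includes the VEGF-C hearts, in which 17 of the 18 B cell genes had the lower log2 mean.

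Genes of the secretory machinery were called in both directions. Of 19 genes that plasma cells use at high level and that other cells also express, 1 was lower and 5 were higher in VEGF-C, against 8.61% and 7.05% of all genes. The count of higher genes was 1 without VEGF-C replicate 1, VEGF-C replicate 3, PBS replicate 2 or PBS replicate 4, 2 without VEGF-C replicate 4 and 3 without VEGF-C replicate 2 or PBS replicate 3. The signal peptidase subunit gene Sec11c fell by 0.42 on the log2 scale (limma adjusted p = 0.0128). Herpud1, a gene of endoplasmic reticulum degradation, rose by 0.62 ± 0.11 on the log2 scale (limma adjusted p = 0.00551). Dnajb9 and Hspa5, which encode chaperones of the same compartment, rose by 0.39 and 0.33 (limma adjusted p = 0.0350 and 0.0395). Both of these calls were lost on leaving out any 1 heart except PBS replicate 1 and VEGF-C replicate 2 (up to 0.0980 and 0.103). They were also lost with scaling by library totals (0.233 and 0.312), which turned the split of the list to 5 lower and 1 higher; that scaling shifted the median log2 fold change over all genes by -0.19. Derl3, a degradation factor typical of plasma cells, had 125 ± 27.8 normalized counts in VEGF-C hearts and 363 ± 275 in PBS hearts. It did not pass (-1.25 ± 0.42, limma adjusted p = 0.0686, and 0.0136 without PBS replicate 1). PBS replicate 1 was the lowest PBS heart for Derl3, so leaving it out lowers that fold change by construction.

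Cytokines that feed plasma cells and steer switching were called in both directions. Of 10 with values, 2 were lower and 1 higher. Over all genes 8.61% were called lower and 7.05% higher, and every list count in this paragraph is to be read beside those shares. Il6, a plasma cell growth factor, was lower by -1.49 ± 0.41 (limma adjusted p = 0.0343), a call that ended when VEGF-C replicate 2 or 3, or PBS replicate 1, 2 or 4, was left out (up to 0.0778) and with a robust variance fit (0.0545). Tgfb1, whose product directs switching to IgA, rose to 4076 ± 220 normalized counts in VEGF-C hearts, against 2803 ± 292 in PBS hearts (log2 fold change 0.54 ± 0.09; limma adjusted p = 0.00372). Cd40, the receptor for T cell help, was lower by -0.54 ± 0.14 (limma adjusted p = 0.0297), a call lost with VEGF-C replicate 2, 3 or 4 left out (up to 0.0756). The survival factor genes Tnfsf13, which encodes APRIL, and Tnfsf13b, which encodes BAFF, had log2 fold changes of -0.66 ± 0.24 and 0.02 ± 0.14 (limma adjusted p = 0.0848 and 0.950). Of 17 genes of class switch recombination with values, 1 was lower, the end-processing nuclease gene Dclre1c (-0.79 ± 0.16; limma adjusted p = 0.0102), and 0 were higher. Plasmacytoid dendritic cells can express Jchain and Mzb1 too. Of 11 genes of that list 0 were lower and 1, Cox6a2, higher. Cox6a2 is also a heart muscle gene, and its call (log2 fold change 0.44 ± 0.12) was lost when VEGF-C replicate 1, 2 or 3 or PBS replicate 3 or 4 was left out (limma adjusted p up to 0.0804) and with library totals (up to 0.151). The list summed to between 95423 and 118116 normalized counts in VEGF-C hearts and between 79790 and 90551 in PBS hearts, most of it Cox6a2; its part in the members' values was not tested. Siglech, a defining gene of those cells, had 115 ± 47.5 normalized counts in VEGF-C hearts and 136 ± 24.6 in PBS hearts (limma adjusted p = 0.488).

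Genes with the profile nearest to each member were sought among 13954 genes with a mean of at least 50 normalized counts. The measure was the root mean square distance, in log2 units, between deviations from each gene's mean over the 8 hearts. Nearest to Jchain was Igkc (0.24, where Jchain itself deviated by 1.08), and next to both came a pair of mast cell protease genes, Tpsab1 (0.35 to Jchain and 0.27 to Igkc) and Cma1 (0.46 and 0.29). Tpsab1 had 188, 379, 240 and 235 normalized counts in VEGF-C hearts, against 89.5, 693, 448 and 485 in PBS hearts. Its lowest heart was PBS replicate 1 and its highest PBS replicate 2, which follows from its choice by nearness to Jchain and Igkc. Tpsab1 and Cma1 did not pass the test (log2 fold changes -0.44 and -0.85; limma adjusted p = 0.606 and 0.249). Nearest to Ighg1 were Slpi, a secreted protease inhibitor (0.51), Ighm (0.65) and ENSMUSG00000120754 (0.70). Slpi had 2762, 5456, 3061 and 1516 normalized counts in VEGF-C hearts and 2835, 22485, 5304 and 4969 in PBS hearts. Mzb1 was nearest to Dnah1 (0.24), Eaf2 (0.25) and Col6a6 (0.26), and Sdc1 to Zfp992, Syt17 and Rhou (0.09 to 0.10). The nearest genes were Ccdc74a, Ms4a8a and Cfhr2 for Ighg2b (from 0.38), Ecrg4, Igfbp2 and Acan for Igha (from 0.66), and Igfals, Eme1 and Sfrp4 for Ighg3 (from 0.84). The members' own deviations, against which these distances are to be read, were 0.26 for Sdc1, 0.65 for Mzb1, 0.79 for Ighg2b, 0.97 for Igkc, 1.21 for Ighg3, 1.32 for Igha and 1.47 for Ighg1.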

How the data were processed

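RNA of 8 hearts was sequenced, and groups were taken from the treatment label. The submitters' processing notes name GRCm39, DESeq2 1.38.3, Subread 2.0.1 and featureCounts, and for reads STAR 2.7.10a and Trim Galore 0.6.10. Annotation and strand setting: not given in the sources used here. Deposited values are log2(x + 4), as read back from the values: x times 1 factor per library gave whole reads for 100% of values (tolerance 0.01), and the factors match median-of-ratios size factors. "Normalized counts" are x. The deposited table also holds the authors' log2 fold changes and adjusted p-values (missing for 23 genes). Genes without values, 38106, were not used.

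The deposited log2 values were fitted with limma 3.58.1 (R 4.3.3), 1 factor, 6 residual degrees of freedom, mean-variance trend, two-sided, with Benjamini-Hochberg adjustment over 18835 genes. The fit was checked on simulated counts with the same dispersion for every gene and no heart set apart. That check does not cover spreads as wide as those of Jchain or Igha in PBS hearts. P-values measure only the spread between these hearts. Such log2 folds understate changes of low genes. Pseudocount, filter, scaling, variance model and leaving out each heart were varied. Some genes are not reported here. Members, gene lists and tests were chosen with earlier results of these data known. Named genes were the members, the listed genes of smallest p-value, a fixed set of B and plasma cell genes and the 3 nearest genes per member; Derl3, Siglech, Iglc1, Fcmr, Fcer1g and Cxcl13 were named after their values were seen.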

Additional observations from a re-analysis of the deposited data

Results flagged for a closer look

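In 2 of 44 groups of 4 hearts a single heart stood apart from the other 3 by more than Dixon's 95% critical value for 4 values (gap over range of the log2 values, on which the ratios depend); chance gives about 1 in 20. Ighg1 in PBS replicate 2 had a ratio of 0.891, with 186355 normalized counts there and 19531 to 24981 in the other PBS hearts. Igkc in VEGF-C replicate 2 had a ratio of 0.968, with 56409 normalized counts there and 33101 to 33662 in the other VEGF-C hearts; this ratio is large because those 3 hearts were nearly equal.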

How the results depend on the processing

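Of 120 fold changes of single members over 15 alternatives, 107 kept their direction and stayed without a call, 6 passed the threshold in the same direction and 7 changed sign. Those that passed did so without PBS replicate 1 or without PBS replicates 1 and 2. Sign changes were in Igha (-0.70 without PBS replicate 1, -0.016 without VEGF-C replicate 2 and -1.40 without PBS replicates 1 and 2), Ighg3 (0.22 without PBS replicate 2, 0.18 without VEGF-C replicate 2 and 0.03 without VEGF-C replicate 3) and Sdc1 (0.0054 without PBS replicate 3); the cause was not tested. With each heart left out in turn these 3 ranged from -0.70 to 0.80 (Igha), -1.02 to 0.22 (Ighg3) and -0.30 to 0.0054 (Sdc1). The number of members called lower was 0 to 3 with each heart left out in turn, 4 without PBS replicates 1 and 2, and 0 with pseudocount 1, a filter on a mean of 10 normalized counts, library totals with or without immunoglobulin genes, voom and a robust variance fit. Over all genes the count of calls was 2949 (1328 higher and 1621 lower), 1684 (without VEGF-C replicate 3) to 2906 with each heart left out in turn (1956 without VEGF-C replicate 1), and 1267 without PBS replicates 1 and 2, where fewer hearts enter. With library totals it was 243 higher and 3572 lower. No paired analysis was possible because nothing in the labels ties the column numbers 1 to 4 of one group to those of the other. Precision is that of 4 hearts a group, and the PBS hearts spread up to 22.8-fold (Igha) among the 8 members, whereas the counting intervals of the isotype shares were at most 0.499 percentage points to either side.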

Other observations

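Receptors for antibody and genes of lymphoid follicles were read in the same hearts. The list counts here stand beside 8.61% of all genes called lower and 7.05% called higher. Of 9 receptor and transport genes with values, 0 passed and all 9 had negative log2 fold changes (median -0.27). With library totals 2 were called lower, 4 with totals without immunoglobulin genes, and 1 without PBS replicate 3 or VEGF-C replicate 1. Log2 fold changes of Fcmr, the IgM receptor of B cells, and of Fcer1g, the shared signalling chain, were -1.28 ± 0.47 and -0.37 ± 0.17 (limma adjusted p = 0.0905 and 0.168). Of 10 genes of follicles and lymphoid tissue, Bcl6, a repressor that germinal centre B cells and many other cells express, rose by 0.87 ± 0.18 in VEGF-C (limma adjusted p = 0.0114), and Glycam1, a mucin of high endothelial venules, was lower by -2.41 ± 0.73 (0.0495). The call of Glycam1 was lost without 6 of the 8 single hearts (all but PBS replicate 3 and VEGF-C replicate 1; up to 0.122) and with pseudocount 1, voom or a robust variance fit (up to 0.106). Cxcl13, the chemokine that draws B cells into follicles, had 1331 ± 415 normalized counts in VEGF-C hearts and 2659 ± 1088 in PBS hearts and did not pass (limma adjusted p = 0.0736).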
